A study of Mus musculus with 7 samples.

Results

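Galectins are small carbohydrate-binding proteins that recognise galactose-containing sugars on glycoproteins. Cells make them in the cytosol and release them without a signal peptide, and outside the cell they can cross-link surface receptors. Inside the cell, several of them mark damaged lysosomes by binding sugars that become exposed to the cytosol. In the brain, galectin-3 is known as a product of microglia and macrophages that take up lipid and debris, and in tumours galectin-1 and galectin-9 are studied as ligands that restrain T cells. The transcripts described here are Lgals1 (galectin-1), Lgals3 (galectin-3), Lgals8 (galectin-8, a sensor of damaged vesicles), Lgals9 (galectin-9, known as a ligand of the receptor encoded by Havcr2) and Lgals3bp, which encodes a secreted, heavily glycosylated protein that binds galectins and is not itself a galectin. These 5 genes of the 55491 gene rows of the deposited matrix were chosen because Lgals3 differed by genotype in microglia only. That contrast is therefore given as values with no test, for all 5 genes in microglia and for Lgals3 in every other cell class.

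The mice carried orthotopic CT-2A glioma, a mouse glioma line, and were engrafted at 8 to 12 weeks of age. The 4 KO mice were Sall1CreERT2 x Siglecefl/fl, in which tamoxifen activates Cre in cells that express Sall1, a microglial transcription factor, and deletes the floxed receptor gene Siglece. The 3 WT mice were Siglecefl/fl without the driver. Both genotypes thus carried the floxed alleles, and both received 2.5 mg tamoxifen per injection, daily from day 7 to day 21 after engraftment and every other day from then on. Only the KO mice carried the driver, so carrying it and losing Siglece cannot be told apart in these groups. Tumour-bearing hemispheres were dissociated, frozen, thawed and sorted for live cells positive for CD45, CD11b or both, and each mouse gave 1 library for 5-prime droplet sequencing.

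The libraries held 1410 to 5856 cells each, 28644 in all, with a median of 4479 to 9554 UMIs (unique molecular identifiers, 1 per captured transcript) per cell, and 460 cell barcodes occurred in more than 1 library. Levels are UMIs of a gene over the UMIs of the summed cells, on the counts-per-million scale (CPM), with n counting libraries that held at least 20 cells of the type. Siglece was at 10.7, 19.6, 0 and 0 CPM in the microglia of KO replicates 1 to 4, from 2, 1, 0 and 0 UMIs. The 3 WT libraries gave 36.1, 45.9 and 18.6 from 20, 19 and 7 UMIs, so KO replicate 2 lay just above WT replicate 3. Where the reads lie relative to the deleted part of the gene is not given in the sources used here. The 23 cell type names of the authors were joined into 9 classes, and 8 of 8 microglia markers and 6 of 6 T cell markers had their highest level in their own class, against 4 of 10 monocyte-derived markers. By Xist and Y-linked genes 3 mice were female (KO replicate 1, KO replicate 2, WT replicate 3) and 4 male.

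Of the 28644 cells, 83.9% held a UMI of Lgals1, 66.2% of Lgals3, 53.9% of Lgals3bp, 47.7% of Lgals9 and 14.1% of Lgals8. The genes lie apart in the mouse genome (GENCODE M21, build GRCm38, to which mm10 corresponds). Lgals1 is at chr15:78926725-78930465 on the plus strand and Lgals3 at chr14:47367751-47386160 on the plus strand. Lgals8 is at chr13:12439415-12464944, on the minus strand. The minus strand of chromosome 11 carries both Lgals9, at chr11:78962974-78984946, and Lgals3bp, at chr11:118392751-118402092. Both genes are known to respond to interferon, and interferon-stimulated genes are compared with them further on, so the bases in front of their starts are shown (RefSeq, GRCm38.p6, 5′ to 3′ on the gene's strand, the part that no GENCODE exon of the gene covers). Capitals mark matches, on either strand, to the interferon-stimulated response element, written as 2 GAAA runs with any 2 bases between them, and to the PU.1 core GAGGAA, bound by a myeloid transcription factor.
Lgals9, chr11:78984947-78985174, minus strand: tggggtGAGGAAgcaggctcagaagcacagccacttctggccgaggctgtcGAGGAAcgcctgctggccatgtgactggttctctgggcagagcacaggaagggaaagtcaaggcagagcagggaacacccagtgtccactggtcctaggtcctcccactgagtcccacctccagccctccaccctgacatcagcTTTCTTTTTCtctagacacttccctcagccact
Lgals3bp, chr11:118402093-118402209, minus strand: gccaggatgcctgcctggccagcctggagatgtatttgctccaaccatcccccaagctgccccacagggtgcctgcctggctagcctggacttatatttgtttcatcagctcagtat
The Lgals9 stretch of 228 bases held 1 response element, read on the opposite strand, whose first base lies 55 bases before the RefSeq start, and 2 PU.1 cores. The Lgals3bp stretch of 117 bases held neither set of letters. Among 32851 RefSeq promoters cut to the 250 bases before the start, 2.98% held the response element and 23.3% the PU.1 core. A match is a run of letters and not a shown binding site.

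Each gene had its own order across the 23 annotated cell types. This is a description, since the names were made from all genes of these cells. Lgals1 was highest in tumour or stromal cells at 4354 ± 394 CPM (SD, n = 5), with a range of 3761 to 4762. Proliferating CD4+ T cells and Tregs came next at 1793 ± 266 (n = 6), then Tregs at 1611 ± 321 (n = 6) and Th1 cells at 1473 ± 292 (n = 6). The step from tumour or stromal cells to the next type exceeded the larger SD of the pair, while the T cell types differed from their neighbours by less than their SD. The lowest levels of Lgals1 were in microglia named low-quality or activated, at 128 ± 31.3 CPM (n = 5), and in type 2 conventional dendritic cells, at 172 ± 50.3 (n = 7). Naive or early-activated CD4+ and CD8+ T cells, at 483 ± 138 and 511 ± 79.8 CPM (both n = 7), held less Lgals1 than the precursor-exhausted CD8+ cells at 1354 ± 335 (n = 7).

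Lgals3 was highest in cell types of the monocyte lineage. Macrophages (P3) held 1640.1 ± 678 CPM (n = 7), Monocytes (P1-P2) 1348 ± 432 (n = 7) and Macrophages (P5) 1044 ± 369 (n = 7). Type 1 conventional dendritic cells stood at 896 ± 191 CPM and type 2 at 201 ± 70.3 (both n = 7), with no overlap of their ranges (649 to 1161 and 144 to 336). None of the 22 steps between neighbours in the order exceeded the larger SD of the pair, so the order of adjacent types is not resolved. B cells were lowest at 47.5 ± 34.5 CPM (n = 6) and tumour or stromal cells next at 61.3 ± 40.6 (n = 5). Lgals3 and Lgals1 were thus high in different cells, and over the 23 cell types their correlation was -0.18 on the log2(CPM + 1) scale.

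Lgals3bp and Lgals9 had their highest means in the cells named Microglia. Lgals3bp stood there at 858 ± 151 CPM (n = 3), in low-quality or activated microglia at 458 ± 142 (n = 5) and in Macrophages (P5) at 343 ± 70.5 (n = 7). Gamma-delta T cells held 332 ± 109 (n = 4), more than any other T cell type, of which the highest was naive or early-activated CD8+ cells at 157 ± 22.2 (n = 7). The lowest level was 53.8 ± 21.0 CPM in type 2 conventional dendritic cells (n = 7). Lgals9 stood at 296 ± 28.1 CPM in Microglia (n = 3), 232 ± 44.4 in Monocytes (P1-P2) (n = 7) and 195 ± 26.1 in Macrophages (P5) (n = 7), and it was lowest in tumour or stromal cells at 20.3 ± 4.78 (n = 5). All 3 libraries behind the Microglia values are WT, since no KO library held 20 such cells. Lgals8 was sparse, from 47.7 ± 13.1 CPM in Monocytes (P1-P2) (n = 7) to 3.96 ± 1.69 in type 2 conventional dendritic cells (n = 7). Type 2 conventional dendritic cells were thus among the 2 lowest types for 4 of the 5 genes, Lgals3 being the exception.

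**Figure D1:**
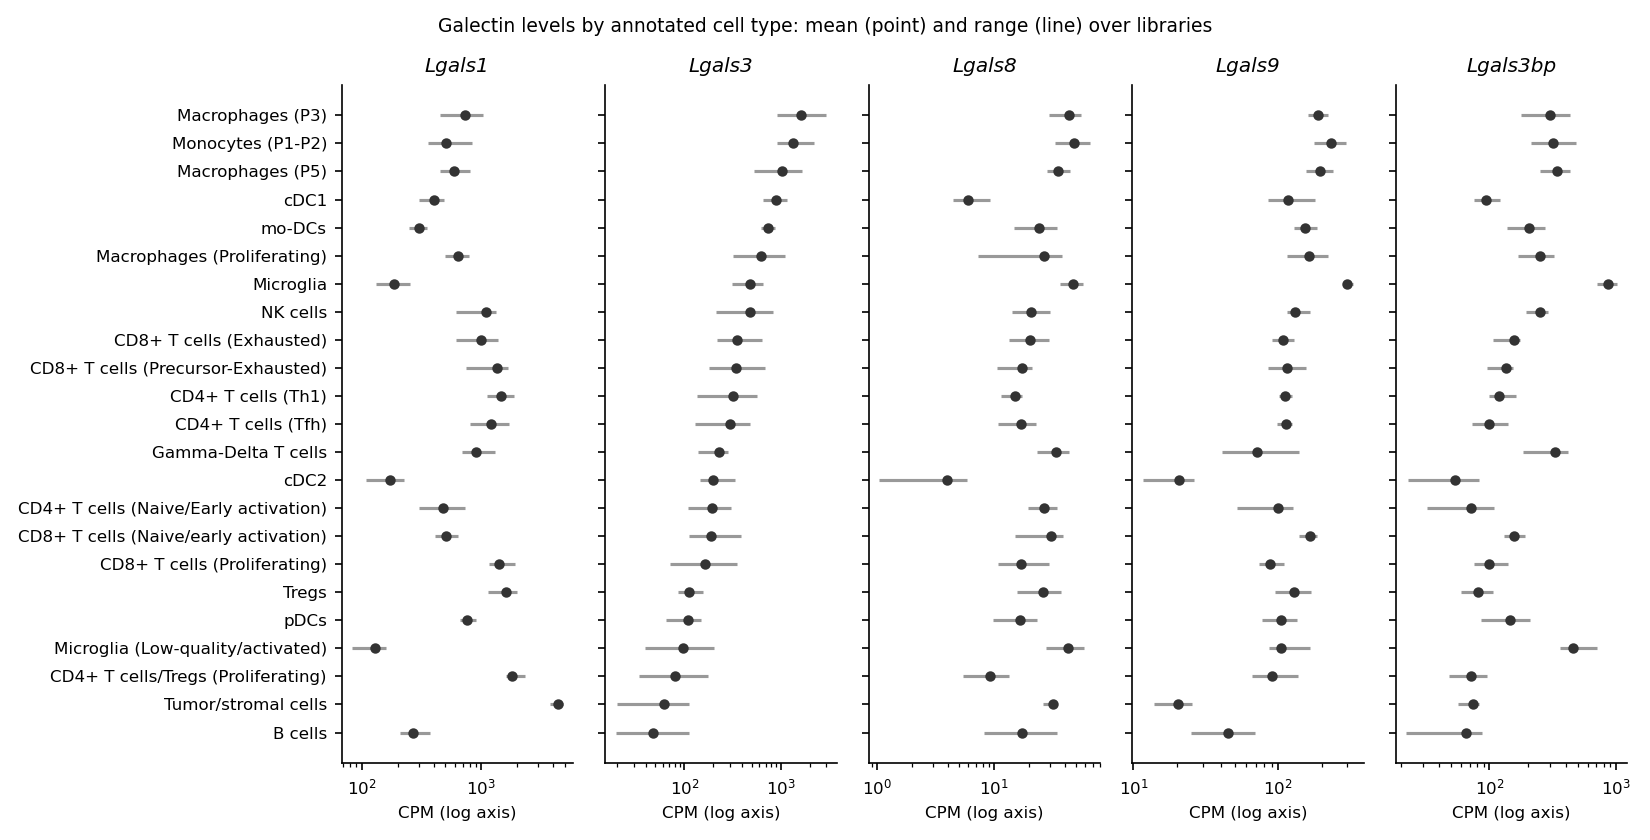
Level of each gene (CPM, log axis, a separate scale per gene) in the 23 annotated cell types, ordered by Lgals3; points are means and lines ranges over libraries with at least 20 cells. Lgals3 peaks in Macrophages (P3) at 1640.1 CPM, Lgals1 in tumour or stromal cells at 4354, and Lgals3bp and Lgals9 in Microglia.

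The genes whose profile over the 23 cell types was most like each member were ranked among 13088 genes by Pearson's r of log2(CPM + 1). The points share libraries and depth, and r is a description. For Lgals3 they were Apobr (r = 0.88), a receptor for apolipoprotein B, Card19 (0.86), Pnp (0.83), a purine salvage enzyme, Arpc1b (0.81), a subunit of the actin-nucleating Arp2/3 complex, and Olfm1 (0.80). For Lgals9 they were Tnfaip8l2 (0.87), Myo1f (0.86), Fuca2 (0.86), Ncf4 (0.85), a subunit of the phagocyte oxidase, and Cyth4 (0.84). Lgals3bp was nearest to Usp2 (0.91), Slc16a10 (0.89), Pld1 (0.86), Csf3r (0.86), the receptor for granulocyte colony-stimulating factor, and Map11 (0.85). Lgals8 was nearest to Tmem251 (0.86), Cebpb (0.86), a myeloid transcription factor, Foxo3 (0.84), Frrs1 (0.83) and Zswim6 (0.82). Genes near Lgals1 included Nxn (0.87), Pfdn1 (0.87), Plod2 (0.86), a collagen-modifying enzyme, and Uba1 (0.86). By rank correlation between 1 and 3 of the 5 genes stayed in each list. Among the members themselves the highest r was 0.71, between Lgals8 and Lgals3bp, followed by 0.68 between Lgals9 and Lgals3bp and 0.65 between Lgals3 and Lgals9.

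Lgals3 in microglia was the contrast that chose these genes. The KO libraries held 177, 117, 0 and 44.4 CPM in replicates 1 to 4, from 33, 6, 0 and 8 UMIs in 30, 21, 13 and 49 cells. The WT libraries held 466, 244 and 414 CPM, from 258, 101 and 156 UMIs in 113, 92 and 96 cells. Every WT library lay above every KO library, and the highest KO value came from replicate 1. Over the libraries with at least 20 cells, KO also lay fully below WT for 9.75% of the 4820 genes tested in microglia. With KO replicate 3 left out for its 13 cells, the means were 113 ± 66.3 CPM (SD, n = 3) and 374 ± 116 CPM (n = 3), and edgeR gave a log2 change of -1.74 with a standard error (SE) of 0.38, a fold of 0.299. Without KO replicate 1 it was -2.56 and without KO replicate 4 it was -1.29.

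The authors divided microglia into 2 names. In cells named Microglia, KO replicates 1, 2 and 4 held 236, 37.2 and 40.6 CPM of Lgals3 (10, 7 and 15 cells), and WT held 649, 312 and 492 (44, 48 and 39 cells). In cells named low-quality or activated, KO held 83.3, 207, 0 and 49.1 CPM and WT 102, 38.9 and 205, so there the groups overlapped. Whether the ratio differs between the names was not tested. The low-quality name covered 66.7% to 100% of the microglia in the KO libraries and 47.8% to 61.1% in the WT libraries.

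In WT cells named Microglia, few cells carried most of the transcript. Among WT cells named Microglia, 21 of 131 (16.03%) held 5 or more Lgals3 UMIs, and these 21 cells carried 423 of the 471 Lgals3 UMIs, or 89.8%. They made up 11 of 44, 5 of 48 and 5 of 39 cells in WT replicates 1 to 3. Among KO cells with this name, 1 of 32 (3.13%) reached 5 UMIs, and it carried 15 of the 32 Lgals3 UMIs. It was 1 of 10 cells in KO replicate 1 (10%), beside 0 of 7 and 0 of 15 in KO replicates 2 and 4. Counting error alone gives 95% intervals of 0.08% to 16.2% for the KO share and 10.2% to 23.5% for the WT share. Both intervals pool cells over mice and leave out the spread between mice, so no difference is read from them. Among cells named low-quality or activated, 1 of 170 WT cells (5 of 44 Lgals3 UMIs) and 0 of 81 KO cells (0 of 15) reached 5 UMIs. Cells of a mouse are not replicates. The WT cells named Microglia and rich in Lgals3 were also deep, with a median of 13665 UMIs against 5537 in the other WT cells of that name. The limit of 5 UMIs and the genes compared next were chosen after values were seen.

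In CPM, which divides by depth, these 21 cells differed from the other 110 in genes beside Lgals3. Spp1, encoding the secreted protein osteopontin, stood at 2868 against 283 CPM, and Gpnmb, a glycoprotein of lipid-laden phagocytes, at 253 against 8.71. Clec7a, a receptor for fungal glucans, stood at 408 against 39.2, and Fabp5, a fatty acid carrier, at 260.4 against 45.0. Each of these 4 was higher in the cells rich in Lgals3 within all 3 WT libraries. Counts were low in WT replicate 2, with 6 against 6 UMIs of Gpnmb and 9 against 14 of Clec7a. The share of all genes higher in all 3 libraries was not counted. Apoe, a lipid carrier, stood at 11877 against 5761 CPM, also higher in all 3 libraries, and Lpl, lipoprotein lipase, at 189 against 40.6, but in WT replicate 2 Lpl stood at 55.1 against 85.7. The purinergic receptor gene P2ry12 stood at 132 against 768 CPM, Tmem119 at 374 against 1165 and Sall1 at 37.7 against 135, each lower in all 3 WT libraries. Trem2, a lipid receptor, stood at 864 against 1267 CPM, lower in all 3 as well. Of the monocyte-derived markers, Ms4a7 stood at 294 against 46.4 CPM, Fn1 at 219 against 98.7 and Arg1 at 34.0 against 23.2. Each of them was higher in all 3 WT libraries, and the other markers of that list were not. The summed monocyte-derived markers were at 743 against 274 CPM and the summed microglia markers at 5820 against 13096. In the single KO cell rich in Lgals3 they were at 3407 and 1451 CPM, so there monocyte-derived markers exceeded microglia markers.

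**Figure D2:**
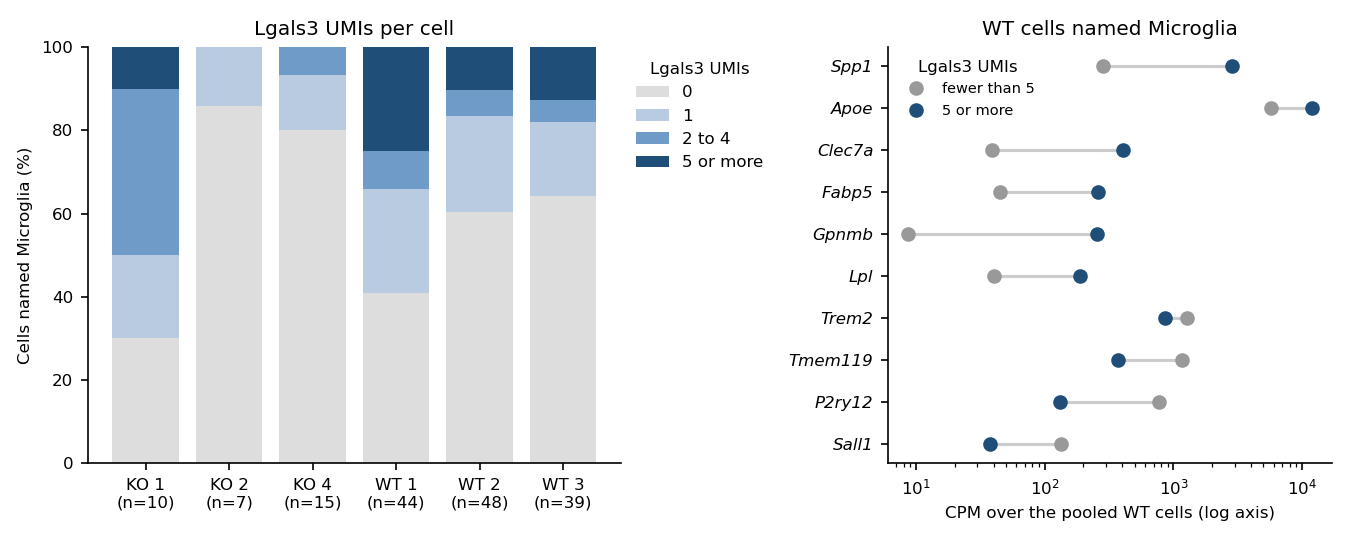
Left, share of cells named Microglia (percent) by their number of Lgals3 UMIs in each library; right, CPM of 10 genes (log axis) over the pooled WT cells of this name with 5 or more and with fewer than 5 Lgals3 UMIs. In the WT libraries 10.4% to 25.0% of the cells held 5 or more UMIs, beside 10%, 0% and 0% in KO replicates 1, 2 and 4. Spp1 and Gpnmb lie to the right and P2ry12 and Sall1 to the left in the pooled WT cells with 5 or more UMIs.

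Of the marker lists summed in the same microglia, those for T cells lay apart between the genotypes, and the microglia, monocyte-derived and neutrophil lists overlapped. The 8 microglia markers, all detected, summed to 5402 to 8554 CPM in the KO libraries and 7886 to 10925 in the WT libraries. The 10 monocyte-derived markers, none at 0 over all microglia, summed to 271 to 675 CPM in KO and 388 to 463 in WT. The 6 T cell markers summed to 64.3 to 128 CPM in KO and 7.22 to 33.8 in WT. These T cell sums came from 12, 6, 3 and 23 UMIs in KO replicates 1 to 4 and 4, 14 and 10.5 in WT. The share of all genes with KO fully above WT in microglia is not given here, so nothing is read from this gap. The 4 neutrophil markers summed to 27.1 to 161 CPM in KO and 91.8 to 168 in WT. The neutrophil sums were nearly all Csf3r (25, 5, 1 and 29 UMIs in KO), while S100a8, S100a9 and Retnlg were at 0 in all KO libraries and at 0 to 5 UMIs in WT. Of 4 border macrophage markers, Lyve1 and Cd163 were at 0 in all microglia. Monocyte-derived cells, which hold the most Lgals3, made up 9.25% to 23.5% of the KO libraries and 32.3% to 53.1% of the WT libraries. The part of these differences in the Lgals3 values was not tested. With all 7 libraries the log2 change was -1.96, and among microglia with at most 10000 UMIs it was -1.09. Without the cells in which monocyte-derived marker UMIs outnumbered microglia marker UMIs it was -2.59. All microglia were 30, 21, 13 and 49 KO and 113, 92 and 96 WT cells. The limit on UMIs kept 23, 21, 13 and 47 KO and 101, 85 and 87 WT cells. The limit on markers kept 28, 20, 13 and 47 KO and 113, 91 and 95 WT cells, so few cells lie behind its shift. Both limits were chosen after values were seen and use the same 7 libraries.

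Sparse counts also limit what single cells show. After thinning each cell to 1500 UMIs, which kept 99 of 113 KO and 268 of 301 WT microglia, 20%, 7.14%, 0% and 9.52% of the KO microglia and 17.1%, 12.9% and 22.2% of the WT microglia held an Lgals3 UMI. The 0% comes from 13 cells, which allows a share of up to 23.1%. These shares overlapped between the genotypes. Their means, over libraries with at least 10 cells for these shares, were 9.17% ± 8.28 (n = 4) and 17.4% ± 4.65 (n = 3), and unthinned they were 19.3% ± 18.7 and 31.1% ± 6.57. B cells, which had the lowest mean Lgals3 level of the 23 cell types, gave 9.14% ± 3.71 in KO (n = 3) and 9.98% ± 5.37 in WT (n = 3) at the same depth. Their unthinned medians were 6098.5 and 8136 UMIs per cell against 3046 and 3075 in microglia. The mean share in KO microglia was thus near the B cell level at this depth, though KO replicate 1 was at 20%. The B cell share is not a floor. Tumour or stromal cells gave 0%, 2.48% and 7.02% in KO replicates 1, 2 and 4 and 8.11%, 14.6% and 3.88% in WT. At 3000 UMIs, where 2 KO libraries had enough cells, KO microglia were at 21.1% ± 11.4 and KO B cells at 12.4% ± 10.9 (n = 3), so no order is read from these shares.

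The other 4 genes in microglia are given as values only, with KO replicate 3 left out of the changes unless all 7 libraries are named. Lgals9 was at 214, 58.7, 27.1 and 183 CPM in KO replicates 1 to 4, from 40, 3, 1 and 33 UMIs. In WT it was at 274, 232 and 228 CPM, from 152, 96 and 86 UMIs. The log2 change was -0.50 (SE 0.27), and all 4 KO libraries lay below all 3 WT libraries. In 9.75% of the 4820 genes tested in microglia the 3 KO libraries in the fit lay below the 3 WT libraries, and nothing is read from this. Lgals8 was at 21.4, 39.1, 54.2 and 27.8 CPM in KO and 43.3, 58.0 and 37.1 in WT (log2 change -0.79, SE 0.47). Lgals3bp was at 841, 803, 569 and 999.7 CPM in KO and 702, 630.4 and 832 in WT, with a log2 change of 0.28 (SE 0.24). Lgals1 was at 209, 97.9, 81.3 and 111 CPM in KO and 171, 128 and 217 in WT (log2 change -0.20, SE 0.29). Single libraries moved these estimates: Lgals1 ran from -0.69 without KO replicate 1 to -0.01 without KO replicate 4, was -0.02 without WT replicate 3, -0.09 without KO replicate 2 and -0.39 without WT replicate 2, and was 0.07 with a replicate block. Lgals9 was -0.29 without KO replicate 2 and -0.76 without KO replicate 1, and Lgals3bp was 0.13 without KO replicate 4 and 0.18 without WT replicate 2. With all 7 libraries Lgals9 was -0.71, Lgals1 -0.33 and Lgals3bp 0.10. With the same 7 libraries, among microglia with at most 10000 UMIs Lgals9 was -1.15, Lgals1 -0.47 and Lgals3bp 0.08, and without cells led by monocyte-derived markers Lgals1 was -0.82, Lgals9 -0.65 and Lgals3bp 0.15. The groups overlapped for Lgals8, Lgals3bp and Lgals1. Within the name Microglia alone, Lgals3bp stood at 925, 1189 and 1471 CPM in KO and 858, 707 and 1009 in WT. The log2 change within this name, from libraries with at least 5 such cells, was -0.24 for Lgals9 and -0.09 for Lgals1.

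Outside microglia Lgals3 is likewise given as values with no test, since the choice of genes rested on its differing in microglia only. In monocyte-derived cells, the KO libraries ranged from 724 to 1885 CPM (1885, 917, 724 and 1465 in replicates 1 to 4). The 3 WT libraries there lay close together at 1156, 1139.9 and 1143. The log2 change was 0.14 (SE 0.31), and the KO libraries surrounded the WT libraries. NK cells held 721, 844, 443 and 379 CPM in KO and 269, 211 and 467 in WT, a log2 change of 0.89 (SE 0.37) with overlapping groups. T cells held 256, 539, 278 and 155 in KO and 170.1, 164 and 294 in WT, a log2 change of 0.57 (SE 0.43). Only KO replicate 2 lay above the highest WT library there. KO replicate 2 was the highest library for Lgals3 in T cells, NK cells, B cells and plasmacytoid dendritic cells, while in monocyte-derived cells it was at 917 CPM, below all 3 WT libraries. The log2 changes in the other 5 classes ran from -0.96 (SE 0.98) in tumour or stromal cells, from 2 KO and 3 WT libraries, to 0.35 (SE 0.68) in B cells. Between them were plasmacytoid dendritic cells at -0.42 (SE 0.25), conventional dendritic cells at -0.10 (SE 0.18) and mo-DCs at 0.21 (SE 0.14). In B cells KO replicate 2 held 112 CPM from 18 UMIs, and KO replicates 3 and 4 held 34.9 and 19.5. The WT B cells held 50.4, 19.3 and 48.4.

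**Figure D3:**
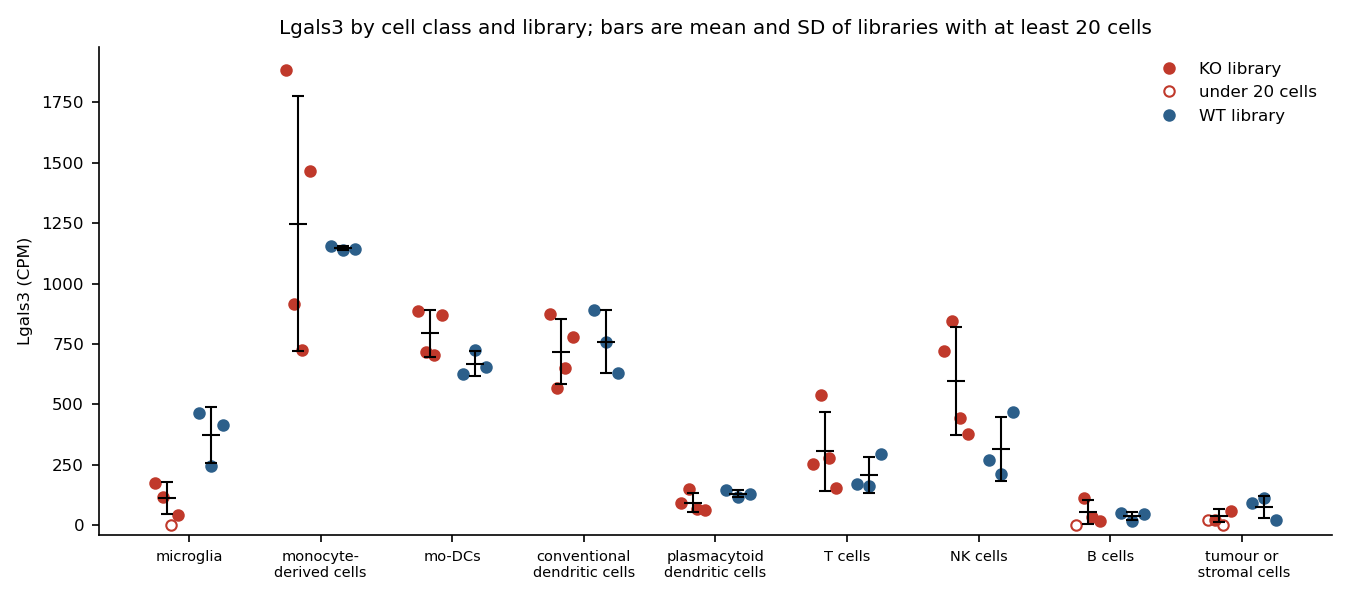
Lgals3 (CPM) by cell class; each point is a library, open where it held under 20 cells, and bars are the mean and SD of the filled points. In microglia all WT points (244 to 466) lie above all KO points (0 to 177), while in monocyte-derived cells the KO points (724 to 1885) surround the WT points. Of all genes tested in microglia, 9.75% had KO fully below WT over the filled points.

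Whether Lgals1, Lgals8, Lgals9 and Lgals3bp differed by genotype outside microglia was tested in edgeR across all genes of each class. None of the 31 gene and class pairs tested passed an adjusted p under 0.05 (Benjamini-Hochberg), 1 had an unadjusted p under 0.05, and DESeq2 called 0 as well, against 3 to 35 of all genes per class. The background was equally thin: 0% of all genes tested were called in monocyte-derived cells, mo-DCs, conventional dendritic cells, T cells and B cells, 0.045% in plasmacytoid dendritic cells, 0.0141% in NK cells and 0.0288% in tumour or stromal cells, beside 0.0415% in microglia. On simulated data with the real libraries, 100 genes of a class were changed by each fold at once. The same fit recovered 50% of the 2-fold changes and 91% of the 4-fold changes in monocyte-derived cells, and 35% and 84% in T cells. The adjusted threshold is stricter where few genes change, and a lone change was not simulated. These rates thus do not give the chance of detecting a change in 1 galectin. Of the pairs, 11 had a higher and 20 a lower estimate in KO, from -0.50 to 0.36 with a median of -0.07 on the log2 scale. In none of these 31 pairs did the KO and WT libraries lie fully apart, against 9.47% of all gene and class pairs outside microglia.

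The estimate with the smallest unadjusted p was Lgals3bp in plasmacytoid dendritic cells. The KO libraries held 129, 86.2, 144 and 128 CPM and the WT libraries 207, 118 and 199, so WT replicate 2 lay among the KO libraries. The log2 change was -0.50 (SE 0.21), with an adjusted p of 0.727 by edgeR's quasi-likelihood test. It was -0.31 without WT replicate 1 and -0.78 without WT replicate 2. Lgals9 in conventional dendritic cells followed, at 66.1, 89.3, 107 and 79.5 CPM in KO and 149, 93.9 and 89.8 in WT, a log2 change of -0.40 (SE 0.19) and an adjusted p of 0.727 by the same test. WT replicate 1 alone stood above the KO libraries, and without it the log2 change was -0.14. Lgals1 was measured with the most UMIs, and in T cells it was at 1199 ± 317 CPM in KO (n = 4) and 1361 ± 207 in WT mice (n = 3), with an estimate on the log2 scale of -0.15 (SE 0.23). KO replicate 3 was lowest there at 769 CPM. KO replicates 1, 2 and 4 held 1524, 1303 and 1201, beside 1290, 1197 and 1594 in WT. In monocyte-derived cells Lgals1 was at 553 ± 123 in KO (n = 4) and 677 ± 78.7 in WT mice (n = 3), with an estimate on the log2 scale of -0.27 (SE 0.20) with an adjusted p of 0.921 in edgeR. In tumour or stromal cells it was at 3761 and 4643 CPM in the 2 KO libraries used and 4388, 4762 and 4217 in WT. Lgals8 in B cells was below the filter on low counts and was not tested.

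**Figure D4:**
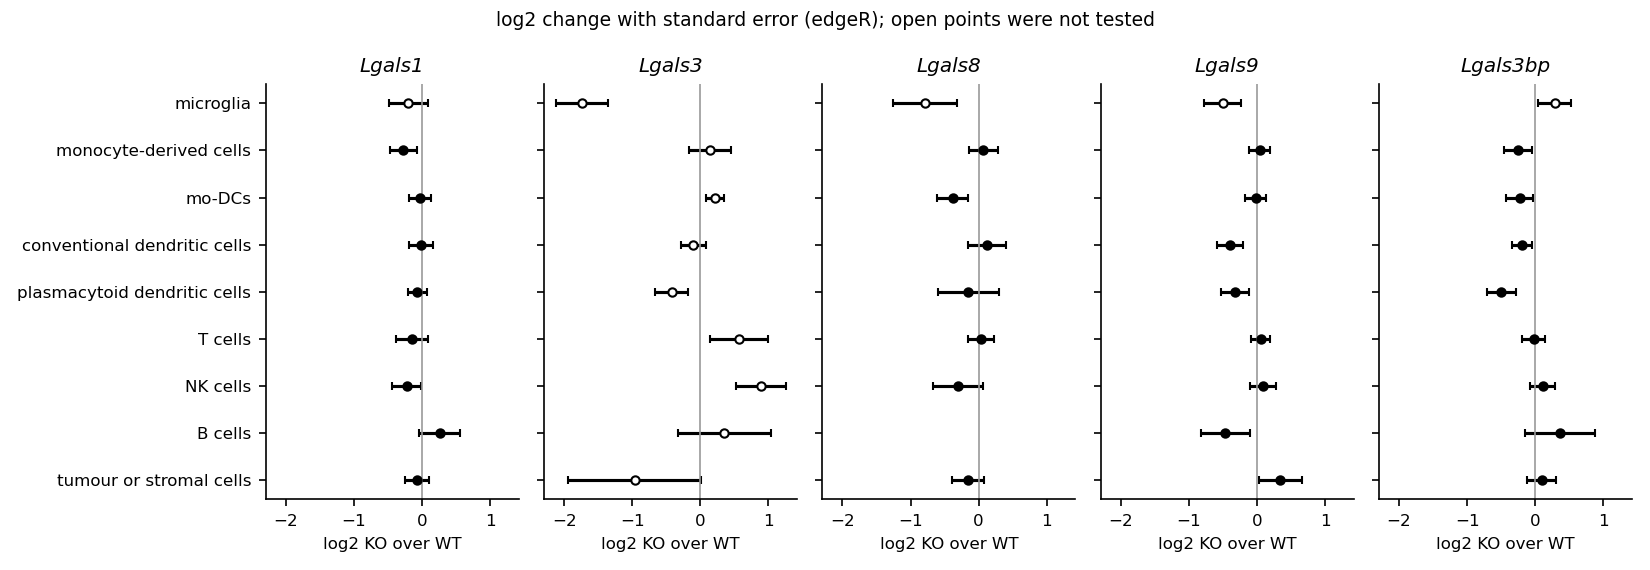
Log2 change, KO over WT, of each gene in each class, with the standard error from edgeR; filled points were tested and open points were not, because the contrast chose the genes. The filled points lie between -0.50 and 0.36, and the open point of Lgals3 in microglia lies at -1.74.

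The proteins that galectins bind and the enzymes that build their sugars were compared in the same fits. Of 17 surface glycoproteins known to bind galectins, 0 of 104 gene and class pairs outside microglia were called. Their class medians of the log2 change ran from -0.31 in plasmacytoid dendritic cells to 0.30 in tumour or stromal cells. In monocyte-derived cells 10 of the 17 had a higher and 7 a lower estimate in KO, with a median log2 change of 0.07 beside 0.00 over all genes. Pdcd1, encoding the checkpoint receptor PD-1, had the smallest p there (log2 change 1.45, SE 0.28, adjusted p = 0.827 in edgeR), followed by Cd2 (1.18, SE 0.39, adjusted p = 0.827 in edgeR), and DESeq2 called Pdcd1, 1 of 20 calls among 11943 genes. Both are genes of T cells, of which the KO libraries held 10617 and the WT libraries 3075, and the part of T cell RNA in these values was not tested. Ptprc, which encodes CD45, had a log2 change of 1.71 (SE 0.31, adjusted p = 0.0782 in edgeR) in tumour or stromal cells. Of 14 enzymes of N-glycan branching and capping, 0 of 98 pairs were called. Their class medians ran from -0.17 in conventional dendritic cells to 0.25 in NK cells. T cells gave a median of 0.04 for these 14, with St6gal1, the enzyme that adds the alpha-2,6 sialic acid that blocks galectin-1 binding, at -0.80 (SE 0.30, adjusted p = 0.721 in edgeR). Of 11 genes of the damaged-lysosome response, 0 of 76 pairs were called, and the class medians there ran from -0.08 in B cells to 0.15 in tumour or stromal cells. In microglia, where values only are given, Itgam, the CD11b gene on which cells were sorted, was at -0.87 (SE 0.25) and Havcr2, the receptor gene named with galectin-9, at 0.73 (SE 0.26).

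Interferon-stimulated genes were compared because Lgals9 and Lgals3bp are known to respond to interferon. Of the 16 listed genes, 16 had a lower estimate in KO in monocyte-derived cells, mo-DCs, conventional dendritic cells and T cells, as did 12 of the 12 tested in plasmacytoid dendritic cells, while between 48.4% and 52.1% of all genes had a higher estimate in KO across the 8 classes outside microglia. In NK cells 14 of 16 were lower (median -0.38), in tumour or stromal cells 11 of 15 (-0.22) and in B cells 4 of 6 (-0.17). In microglia 8 of 14 were lower and 6 higher, with a median of -0.09. Single libraries moved these medians. The median was -0.17 in NK cells without KO replicate 1 or WT replicate 1 and -0.20 without KO replicate 2. In tumour or stromal cells it was -0.06 without WT replicate 2 and -0.13 without WT replicate 3. In B cells it ran from -0.56 without KO replicate 4 to 0.15 without WT replicate 2, so its sign turned. In microglia it ran from -0.43 without KO replicate 4 to 0.08 without KO replicate 2, where the sign also turned, and was -0.23 without WT replicate 2 and -0.03 without WT replicate 3. The median log2 change was -1.29 in mo-DCs, -0.92 in T cells, -0.89 in conventional dendritic cells, -0.87 in plasmacytoid dendritic cells and -0.60 in monocyte-derived cells. None of 113 gene and class pairs outside microglia was called by edgeR, though all 16 in mo-DCs had an unadjusted p under 0.05, as did 798 of all 10501 genes there, and DESeq2 called 8 of the list among its 34 calls. Bst2, encoding the virus-tethering protein tetherin, was at -0.91 (SE 0.20) in mo-DCs with an adjusted p of 0.490 in edgeR, and Rtp4 at -0.93 (SE 0.21) with the same adjusted p. Without WT replicate 1, the medians were -0.75 in mo-DCs, -0.49 in T cells, -0.43 in conventional dendritic cells and -0.31 in monocyte-derived cells. Genes of this list are known to respond to a shared signal and are not independent of each other.

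Lgals9 and Lgals3bp are set beside the list here, and no test of the difference was run. In mo-DCs the 16 genes summed to 1653, 1425, 2337 and 2208 CPM in KO and 5746, 2893 and 3104 in WT, with every KO library below every WT library. Of single gene and class pairs outside microglia, 9.47% lay fully apart in either direction. Over the same libraries Lgals9 was at 159, 161, 164 and 133 CPM in KO and 186, 141 and 129 in WT, a log2 change of -0.02 (SE 0.16). Lgals3bp was at 187, 137, 238 and 219.8 in KO and 273, 188 and 205 in WT, a log2 change of -0.23 (SE 0.19). WT replicate 1 was the highest library for the list and for both genes in mo-DCs, conventional dendritic cells and monocyte-derived cells. The distance from the list varied by class. Beside a list median of -0.87 in plasmacytoid dendritic cells, Lgals3bp was at -0.50 and Lgals9 at -0.32. Beside -0.89 in conventional dendritic cells, Lgals9 was at -0.40 and Lgals3bp at -0.19. Beside -0.92 in T cells, Lgals9 was at 0.06 and Lgals3bp at -0.02, and beside -0.60 in monocyte-derived cells they were at 0.04 and -0.25. In plasmacytoid dendritic cells the list summed to 4337 to 5892 CPM in KO and 6127 to 7319 in WT, and WT replicate 1 was again highest for both genes while WT replicate 3 was highest for the list.

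**Figure D5:**
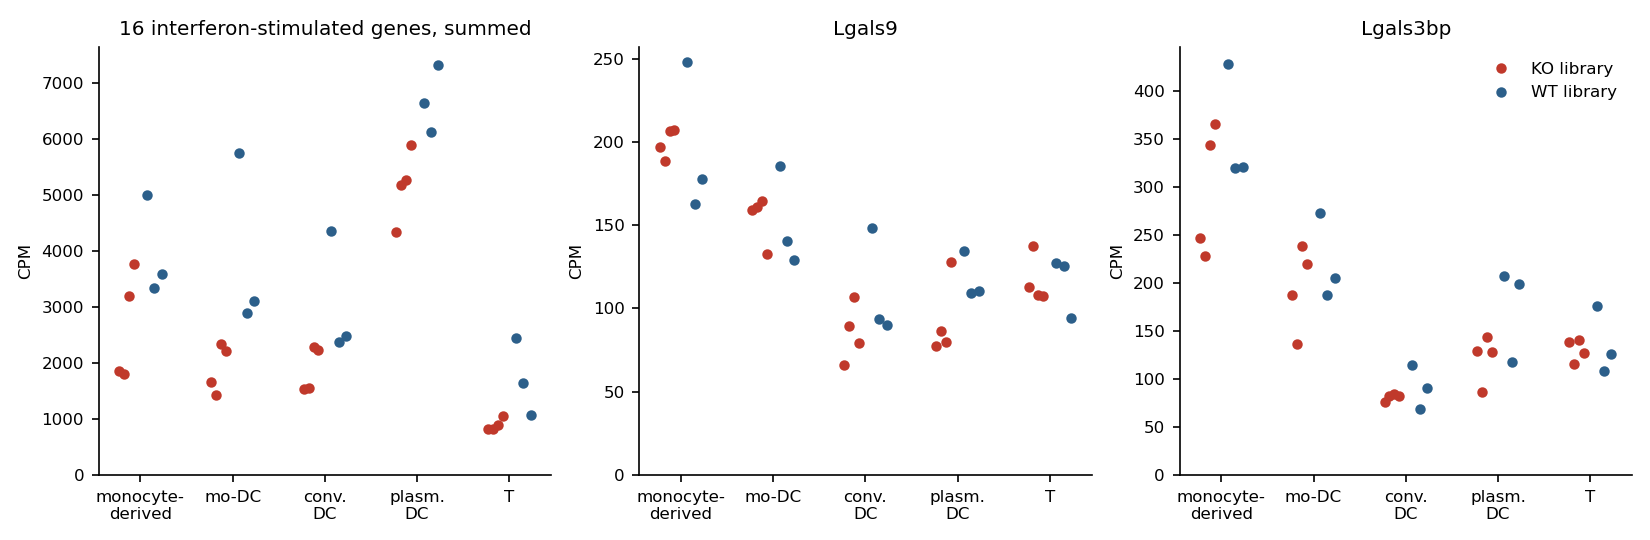
Summed CPM of 16 interferon-stimulated genes and CPM of Lgals9 and Lgals3bp in 5 classes; each point is a library. The list lies lower in every KO library than in every WT library in mo-DCs, conventional dendritic cells, plasmacytoid dendritic cells and T cells, and overlaps in monocyte-derived cells. The margin is thin in T cells (highest KO 1061, lowest WT 1078 CPM) and in conventional dendritic cells (2284 and 2368). The points of Lgals9 and Lgals3bp overlap.

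Cell cycle phase, which the choice of genes did not use, was compared within mice. Cells called S or G2M by the authors were set against G1 cells of the same mouse, over 10 gene and class pairs. In monocyte-derived cells Lgals3 was at 913 ± 336 CPM in cycling cells and 1299.7 ± 446 in G1 cells (n = 7), a mean log2 difference of -0.52 ± 0.13 (SD), lower in cycling cells in 7 of 7 mice. In T cells it was at 222 ± 116 and 299.7 ± 146 CPM (n = 7), a difference of -0.45 ± 0.18, again lower in 7 of 7 mice. Lgals1 in T cells differed the other way, at 1429 ± 288 CPM in cycling and 1138 ± 246 in G1 cells (n = 7), a difference of 0.33 ± 0.16, higher in 7 of 7 mice. Each of these 3 had p = 0.0156 in the exact two-sided paired permutation test, the smallest that 7 mice allow, and an adjusted p of 0.0521, so none passed the threshold of 0.05. Within annotated cell types the Lgals1 difference in T cells was 0.10 ± 0.04, higher in 7 of 7 mice. Lgals3 was at -0.12 ± 0.17 in T cells, higher in 1 of 7 mice, and -0.20 ± 0.24 in monocyte-derived cells, higher in 1 of 6. The adjusted p by the same permutation test was 0.156 for Lgals1 and 0.3125 for each Lgals3 difference. The cycling cells were deeper, with medians of 5180 against 4557 UMIs in T cells and 7673 against 6065 in monocyte-derived cells, and the part of depth was not tested.

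Of the other galectin genes of the matrix, Lgals7 and Lgals4 had the clearest patterns by cell type. Lgals7, a galectin known from stratified epithelium, had 4623 UMIs in 1388 cells. It was highest in tumour or stromal cells at 245 ± 103 CPM (n = 5), followed by Th1 cells at 162 ± 78.5 (n = 6) and T follicular helper-like cells at 89.7 ± 43.4 (n = 6). Its level in Th1 cells was 118, 161, 94.6 and 296 CPM in the 4 KO libraries and 205 and 94.7 in WT replicates 2 and 3, so the groups overlapped, and WT replicate 1 had 8 Th1 cells and is left out. Lgals4, an intestinal galectin, had 335 UMIs in all and stood at 52.1 ± 21.6 CPM in plasmacytoid dendritic cells (n = 7), in every library between 32.0 and 95.7, while its next highest mean was 2.27 ± 2.32 in Tregs (n = 6). Its log2 change in plasmacytoid dendritic cells was 0.26 (SE 0.30, adjusted p = 0.982 in edgeR). Lgalsl had 1554 UMIs, Grifin 120, Lgals2 26 and Lgals12 1.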

How the data were processed

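The 7 libraries were processed by the submitters with STARsolo (STAR 2.7.10a) on mm10 after FastQC 0.11.5, per the submitters' processing notes. The deposited matrix holds expected counts, here UMIs per gene and cell, of which 7.51% of nonzero values were not whole (tolerance 1e-06); how these arose is not given in the sources used here. The deposited cell table gives cell type names, phases, counts of detected genes and the percent of mitochondrial UMIs.

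UMIs were summed per mouse and cell class or name (at least 20 cells), rounded, and tested in edgeR 4.0.16 (quasi-likelihood, robust, TMM, filterByExpr, genotype only; R 4.3.3) with Benjamini-Hochberg adjustment over all genes of a class and a threshold of 0.05. DESeq2 1.42.0 was an alternative. Levels, thinning and exact permutation tests used Python 3.11.15, numpy 2.4.6 and scipy 1.17.1. The edgeR fits were tested on simulated data with 100 genes changed by each fold at once. In microglia they recovered 30% of the 2-fold and 80% of the 4-fold changes over 4820 genes. Doublets were not called, since the authors' names were used for all cells.

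The genes and all lists were chosen with earlier results of these data known. Named were the 5 genes, of each list genes called or else up to 2 with the smallest p per class, and the 5 genes most like each member among those reaching 10 CPM, of which 1 is not reported here. The labels call the samples separate mice. The limit given for a count of 0 covers counting error only. Lgals6 and Clc were not analysed here.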

Additional observations from a re-analysis of the deposited data

Results flagged for a closer look

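In each of 115 groups of 4 KO libraries, the gap between an extreme library and its nearest neighbour was compared with the range of the group. The gap exceeded Dixon's critical value in 4 groups, while chance gives about 1 in 20. Lgals3 in exhausted CD8+ T cells was at 646 CPM in KO replicate 2 and at 219.8, 267 and 285 in the other KO libraries. Lgals3 in proliferating CD8+ T cells was at 354 CPM in KO replicate 2 and at 71.0, 109 and 115 in the others. Lgals3bp in Th1 cells was at 161 CPM in KO replicate 1, against 99.95, 104 and 104 in the others. Lgals3bp in exhausted CD8+ T cells was at 152 CPM in KO replicate 2, against 166, 166 and 167 in the others.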

How the results depend on the processing

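None of the 31 tests of Lgals1, Lgals8, Lgals9 and Lgals3bp outside microglia was called in any of 420 alternative fits (DESeq2, no TMM scaling, no filter, every library kept, whole UMI values only, sex as a term, replicate block, each library left out). The partner lists, with 0 calls in the edgeR fit, gave 17 with DESeq2 (16 of them interferon-stimulated genes lower in KO), where DESeq2 called 3 to 35 of all genes per class outside microglia. They gave 19 with no filter on low counts, where 3 to 182 of all genes per class were called, 1 with every library kept (11 of 9732 genes in its class, tumour or stromal cells) and between 0 and 3 with a library left out (3 without KO replicate 4 and 1 without WT replicate 2, where 10 and 12 of all genes were called in plasmacytoid dendritic cells, and 25 without KO replicate 4 in tumour or stromal cells). With a replicate block they gave 6, all interferon-stimulated genes in plasmacytoid dendritic cells, where the block called 38 of 6412 genes, and the block gave -1.30 for Lgals3 in microglia. Same-numbered libraries correlated at -0.22 to 0.14 in their deviations from the group means. Deviations from means of so few libraries cannot show whether the numbers pair the mice. Lgals3 in microglia ran from -2.56 (without KO replicate 1) to -1.29 (without KO replicate 4), and with all 7 libraries was -1.96, -2.59 without cells led by monocyte-derived markers and -1.09 among cells with at most 10000 UMIs, the last 2 chosen after seeing the data. With libraries of at least 5 cells, the level in Microglia was 252 CPM for Lgals9 and 1026 for Lgals3bp, both still their highest cell type. The share of microglia with an Lgals3 UMI was 19.3% in KO and 31.1% in WT without thinning, and 21.1% and 32.7% at 3000 UMIs. By Spearman correlation the lists of 5 most similar genes shared 2 genes for Lgals1, 3 for Lgals3, 1 for Lgals8, 1 for Lgals9 and 3 for Lgals3bp. Why these values moved was not tested. Low-quality or activated microglia alone gave no fitted Lgals3 value, since it was below the filter, and likeness to Lgals8 at 50 CPM was not run.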
